A study of Mus musculus with 8 samples.

Results

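The rod phototransduction cascade was followed here through 9 genes, Gnat1, Gnb1, Gngt1, Pde6a, Pde6b, Pde6g, Cnga1, Cngb1 and Sag, chosen by name. They were found on the array through the RefSeq accession of each probe, which gave 13 of 56605 probes, and 9 of the 22911 genes that the probes name. All 13 probes were well above background on all 8 arrays, so none was lost to the filter that left 34303 probes to test. Gene expression was measured in mouse photoreceptor cells at postnatal day 8, an age at which rods are still maturing, to ask what differs between cells with and without Lpcat1, the enzyme that makes saturated phosphatidylcholine. The 4 KO samples came from mice with both alleles of Lpcat1 deleted in the whole animal, and the 4 HZ samples from heterozygous controls, which carry 1 deleted allele themselves. The strain is labelled C57BL/6, the knockout line having been on the N substrain and then crossed to C57BL/6J so that the homozygous rd8 allele of Crb1 was lost, and the mice were kept under a normal light cycle. Cells were taken from the retina by magnetic beads against CD73, a surface marker of photoreceptor cells encoded by Nt5e. How many animals went into a sample is not given in the sources used here, so that the spread between samples may be partly technical.

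In darkness, cyclic GMP holds the cation channel of the rod outer segment open. When the visual pigment absorbs light it activates the G protein transducin, whose alpha subunit relieves the inhibition of a phosphodiesterase that breaks down cyclic GMP, and the channel closes. Arrestin then binds the phosphorylated pigment and ends its activity. Loss of several of these genes causes retinal degeneration in mice and humans.

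The array carried 1 probe for each of Gnat1, Gngt1, Pde6a, Pde6b, Cnga1 and Sag, a pair of probes for each of Gnb1 and Pde6g, and 3 probes for Cngb1. Values are the log2 spot signal minus the array's 75th percentile of it, so that a value of 0 is the brightness of the 75th percentile spot, and a gene's probes are numbered from the one with the highest mean. All 8 arrays lay on 1 slide, the KO arrays in the upper row and the HZ arrays in the lower one, so that slide row and genotype cannot be told apart. Arrays of the same replicate number shared a slide column.

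The probe of Lpcat1 did not separate the labels. Arrays labelled HZ read -0.81, -0.95, -1.02 and -1.17, and arrays labelled KO read -0.97, -1.16, -1.11 and -0.85. KO minus HZ was -0.04 with a standard error (SE) of 0.11 (adjusted p = 0.931 by limma). Where this probe lies relative to the deleted part of the gene is not given in the sources used here, so it checks nothing, and KO and HZ stand below for the arrays so labelled. Markers of the labelled cell type were looked at next. Nrl, the transcription factor that sets rod fate, gave 7.30, 7.15, 7.22 and 6.94 on the HZ arrays and 7.28, 7.03, 7.12 and 7.12 on the KO arrays. All 9 photoreceptor markers looked at were well above background on all 8 arrays. So were all 6 Muller glia and all 6 bipolar cell markers, so that signal above background alone does not check the label. Nt5e gave 4.27, 4.29, 4.36 and 4.39 on the HZ arrays against 4.05, 4.27, 4.25 and 4.29 on the KO arrays, and the groups overlapped.

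In none of the 13 probes did KO and HZ differ past the stricter thresholds, a fold over 1.2 together with an adjusted p under 0.05 in limma, and 0 of all 34303 tested probes did (0%). At the looser thresholds, a fold over 1.5 together with an adjusted p under 0.5, again 0 of the 13 passed, beside 1.04% of all tested probes. Without adjustment, 1 of the 13, the first Gnb1 probe, had p under 0.05, while 8.17% of all tested probes did. The groups did not overlap in 0 of the 13, beside 6.33% of all tested probes. Each of these counts is near its background. With the replicate number as a block, the first Gnb1 probe passed the looser thresholds, where 3.4% of all probes did, and 2 of the 13 probes, the first of Gnb1 and that of Cnga1, had an unadjusted p under 0.05, where 11.9% of all probes did.

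Of the 9 genes, each by its first probe, 6 were lower and 3 higher on the KO arrays, with a median difference of -0.05, beside 0.0023 for all tested probes. Neither the split nor the sign of the median held with single arrays left out: 4 were lower and 5 higher without KO replicate 2 or without HZ replicates 1 or 4, and the median ran from -0.14, without HZ replicate 3, to 0.04, without KO replicate 2. Over the 13 probes the split was 7 lower and 6 higher, and 10 differed by less than a fold of 1.2. The 95% interval of the difference included 0 for 12 of them. The SEs ran from 0.09 to 0.28, so that a small difference in these genes would not be seen with 4 arrays a group. In these bulk samples, fewer rods and less RNA per rod cannot be told apart.

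**Figure D1:**
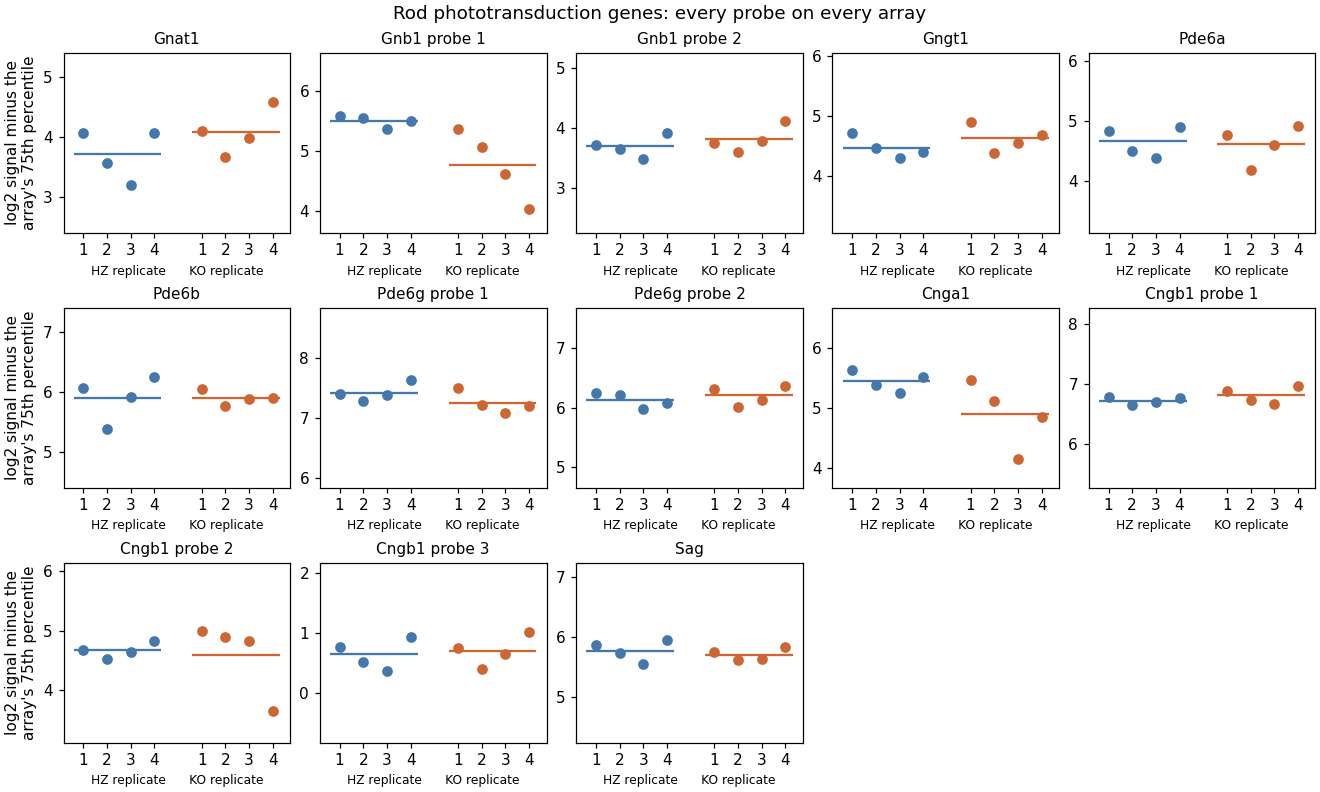
Log2 signal minus the array's 75th percentile for the 13 probes of the 9 genes, 1 point per array, HZ in blue and KO in orange, with a line at each group's mean. Every panel spans 3 log2 units around its own mean. The second Cngb1 probe, the first Gnb1 probe and the Cnga1 probe spread more widely on the KO arrays (SD 0.62, 0.58 and 0.56) than on the HZ arrays (SD 0.12, 0.10 and 0.17).

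Transducin is a trimer of the rod alpha subunit Gnat1, the beta subunit Gnb1 and the gamma subunit Gngt1. Gnat1, whose product carries the signal from pigment to phosphodiesterase, gave 4.06, 3.56, 3.19 and 4.06 on the HZ arrays and 4.10, 3.67, 3.98 and 4.57 on the KO arrays. Replicates 2 and 3 were the lower HZ arrays, and KO lay above HZ at each of the 4 replicate numbers, by 0.04, 0.11, 0.79 and 0.51. The groups overlapped, and the difference of 0.36 (SE 0.25, 95% interval -0.22 to 0.94) did not pass the test (adjusted p = 0.718 by limma).

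Gnb1, which is also widely expressed outside rods, was read by a pair of probes of the same RefSeq transcript, and they did not move together. The first probe gave 5.60, 5.56, 5.37 and 5.50 on the HZ arrays and 5.38, 5.07, 4.62 and 4.04 on the KO arrays. The HZ arrays lay close together, while the KO arrays ran from just inside their range to far under it. KO was below HZ at every replicate number, by -0.22, -0.49, -0.75 and -1.46, and the mean difference was -0.73, a fold of 1.66, with an SE of 0.26 and an interval of -1.33 to -0.13. This did not hold after adjustment (unadjusted p = 0.0235, adjusted p = 0.546 by limma), and with the replicate block the adjusted p was 0.373. Without HZ replicate 1 the unadjusted p was 0.0517 and without KO replicate 3 it was 0.0568. The size depended on single arrays and on the settings: the difference was -0.48 without KO replicate 4, -0.93 without KO replicate 1, -1.17 with normexp background correction (adjusted p = 0.235 by limma) and -0.31 as the mean of the gene's probes. The second probe gave 3.72, 3.65, 3.48 and 3.92 on the HZ arrays and 3.75, 3.60, 3.77 and 4.12 on the KO arrays. Here KO replicate 4, the lowest array of the first probe, was the highest of all 8, and the difference was 0.12 with an SE of 0.14 (adjusted p = 0.818 by limma).

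Set against each other within an array, the first Gnb1 probe lay above the second by 1.88, 1.90, 1.89 and 1.58 on the HZ arrays and by 1.63, 1.47, 0.85 and -0.08 on the KO arrays. KO replicates 2, 3 and 4 thus had a smaller gap than any HZ array, and the pair of probes differed by 0.85 in their KO minus HZ values. Of 5520 genes with more than 1 tested probe, 98 (1.78%) had a disagreement with the first probe at least this large. Probes of opposite sign were common, in 2395 of those genes (43.4%).

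The spot of the first Gnb1 probe lies in grid row 1, at the edge of the array, and that of the second in row 265 of 384. Among tested probes with a mean above 3, values more than 0.5 under the probe's own median over the arrays were found on KO replicate 4 in 11.5% of the 269 probes with a spot in the outer 3 rows or columns and in 2.44% of the 3404 others. On KO replicate 3 the shares were 4.83% and 1.41%, on KO replicate 2 4.09% and 1.23%, on KO replicate 1 1.12% and 0.942%, and on HZ replicates 1 to 4 they were 0%, 2.23%, 1.86% and 5.22% at the edge against 0.705%, 0.881%, 0.147% and 2.56% elsewhere. The part of spot position in the Gnb1 values was not tested. With edge probes left out, an alternative chosen after seeing the data, Gnb1 is read by its second probe alone. Then 0 member probes have an unadjusted p under 0.05, beside 8.01% of all tested probes.

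Gngt1, the rod gamma subunit, gave 4.73, 4.47, 4.31 and 4.41 on the HZ arrays and 4.91, 4.39, 4.56 and 4.69 on the KO arrays. Replicate 1 was the highest array in either group. The difference of 0.16 had an SE of 0.14 (adjusted p = 0.760 by limma). It was 0.07 without KO replicate 1 and 0.35 with normexp (unadjusted p = 0.0277, adjusted p = 0.427).

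**Figure D2:**
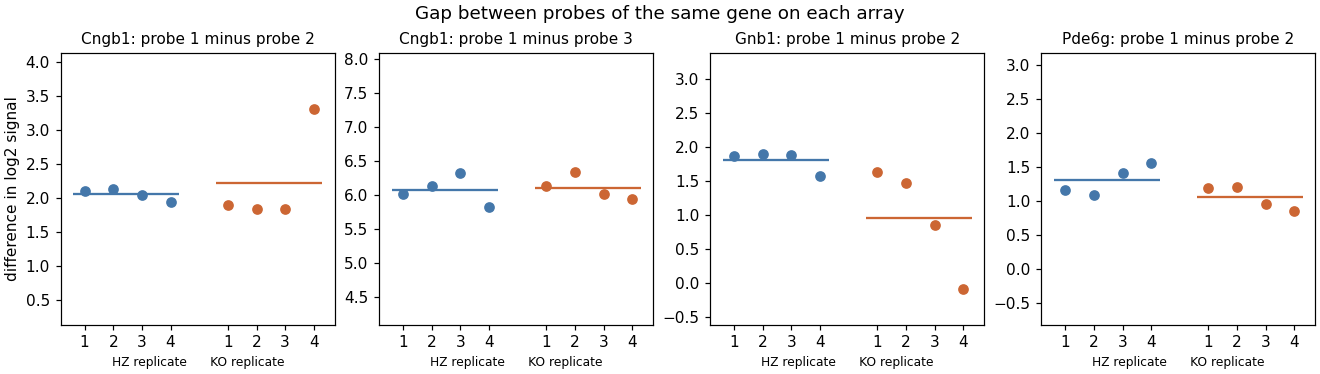
Log2 signal of the first probe minus that of another probe of the same gene on each array, for Cngb1, Gnb1 and Pde6g, HZ in blue and KO in orange, with a line at each group's mean. Every panel spans 4 log2 units. The Gnb1 gap is between 1.58 and 1.90 on the HZ arrays and reaches -0.08 on KO replicate 4, and the gap to the second Cngb1 probe is 3.30 on KO replicate 4.

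The rod phosphodiesterase consists of the catalytic subunits Pde6a and Pde6b and the inhibitory subunit Pde6g, which transducin displaces. None of its 4 probes passed a threshold between the groups. Pde6a gave 4.84, 4.50, 4.38 and 4.90 on the HZ arrays and 4.76, 4.17, 4.60 and 4.91 on the KO arrays. Replicates 1 and 4 were the higher arrays in both groups, and KO minus HZ was -0.05 (SE 0.19, adjusted p = 0.952 by limma).

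Pde6b gave 6.07, 5.40, 5.92 and 6.26 on the HZ arrays and 6.05, 5.78, 5.89 and 5.91 on the KO arrays. HZ replicate 2 was the lowest array and HZ replicate 4 the highest, so that the KO arrays lay within the HZ range. The difference was -0.0039 with an interval of -0.42 to 0.41 (SE 0.18, adjusted p = 0.996 by limma).

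Pde6g was read by a pair of probes with differences of opposite sign. The first gave 7.40, 7.29, 7.39 and 7.63 on the HZ arrays and 7.50, 7.23, 7.08 and 7.21 on the KO arrays, a difference of -0.17 (SE 0.12, adjusted p = 0.717 by limma). The second gave 6.24, 6.20, 5.98 and 6.07 on the HZ arrays and 6.31, 6.02, 6.13 and 6.36 on the KO arrays, a difference of 0.08 (SE 0.11, adjusted p = 0.843 by limma). As for Gnb1, KO replicates 3 and 4 had the smallest gaps between the probes, 0.95 and 0.85, against 1.16, 1.09, 1.41 and 1.56 on the HZ arrays and 1.19 and 1.21 on KO replicates 1 and 2. Both Pde6g spots lie outside the outer 3 rows and columns, but the first is near the edge, in row 210 and column 159 of 164. The second is in row 310 and column 94.

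The cyclic GMP-gated channel is built of Cnga1, which forms the pore, and Cngb1, which modulates it. Cnga1 gave 5.64, 5.39, 5.25 and 5.53 on the HZ arrays and 5.47, 5.13, 4.15 and 4.86 on the KO arrays. KO was below HZ at every replicate number, by -0.17, -0.26, -1.10 and -0.67, and 3 KO arrays lay under the HZ range while KO replicate 1 lay within it. The difference of -0.55, a fold of 1.46, had an SE of 0.26 and an interval of -1.15 to 0.05, and did not pass (unadjusted p = 0.0664, adjusted p = 0.633 by limma). With the replicate block the unadjusted p was 0.0271 and the adjusted p 0.390. The size rested on single arrays: it was -0.30 without KO replicate 3 and -0.74 without KO replicate 1. This gene has 1 probe, in grid row 325 and column 125, away from the edge, and no other probe to set it against.

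Cngb1 was read by 3 probes, the first of them on another RefSeq transcript than the other two. The first gave 6.78, 6.65, 6.69 and 6.76 on the HZ arrays and 6.88, 6.74, 6.66 and 6.96 on the KO arrays, a difference of 0.09 with the smallest SE of the 13 probes, 0.09 (adjusted p = 0.788 by limma). The third differed by 0.06 (SE 0.17, adjusted p = 0.930 by limma). The second gave 4.68, 4.52, 4.65 and 4.82 on the HZ arrays and 4.99, 4.89, 4.83 and 3.66 on the KO arrays. KO replicates 1, 2 and 3 lay above all 4 HZ arrays, and replicate 4 lay 1.16 below its HZ counterpart. The difference of -0.08 (SE 0.28, adjusted p = 0.946 by limma) became 0.23 without KO replicate 4 (SE 0.10, adjusted p = 0.807 by limma). This spot too lies at the edge, in grid column 2. Pore and modulating subunit thus gave differences of opposite sign by their first probes, -0.55 and 0.09, and whether the 2 differ from each other was not tested.

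Sag encodes rod arrestin, which ends the activity of the pigment. It gave 5.88, 5.73, 5.55 and 5.95 on the HZ arrays and 5.74, 5.62, 5.63 and 5.83 on the KO arrays. The KO arrays lay within the HZ range, and the difference was -0.07 with an interval of -0.33 to 0.18 (SE 0.11, adjusted p = 0.862 by limma).

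**Figure D3:**
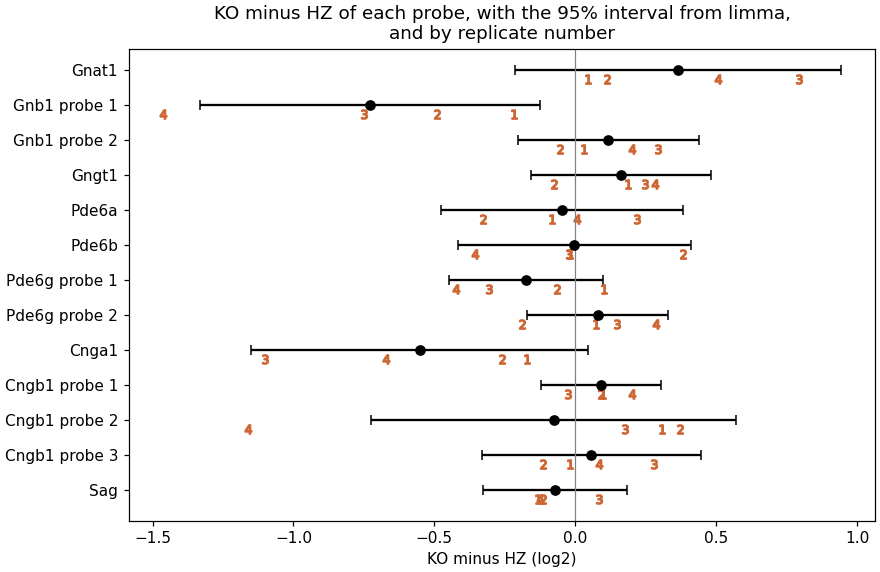
KO minus HZ in log2 for each of the 13 probes. Black points are the differences of the group means with 95% intervals from limma, and the digits under them are KO minus HZ at replicate numbers 1 to 4. The interval of the first Gnb1 probe, -1.33 to -0.13, is the 1 of 13 that does not include 0.

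The mean of the 9 genes, each centred on its own mean over the 8 arrays, was 0.20, -0.07, -0.12 and 0.21 on the HZ arrays and 0.18, -0.15, -0.22 and -0.02 on the KO arrays. Replicates 2 and 3 were the lower arrays in both groups. By replicate number, KO minus HZ of this mean was -0.02, -0.08, -0.10 and -0.23, and with Gnb1 and Cnga1 left out, a choice made after their values were seen, it was 0.03, 0.00078, 0.14 and 0.01. Between 3 and 4 of the 9 genes were higher on the KO array at every replicate number.

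The genes of the other lists with the nearest profile to this mean were Rgs9 (root mean square difference 0.14 over the 8 arrays), Rgs9bp (0.14) and Rp1 (0.15). The mean itself ran only from -0.22 to 0.21, so that a gene that hardly varies would score low too. A low score is therefore no sign of a shared course over the arrays. Rgs9 speeds up GTP hydrolysis by transducin, Rgs9bp anchors it to the membrane, and Rp1 is a protein of the photoreceptor axoneme. Rgs9 differed by 0.0026, Rgs9bp by 0.06 and Rp1 by -0.04 between KO and HZ. Probes of Rgs9 and Rp1 other than the first differed more, to -0.65 and -1.48. Among the members themselves, Sag lay nearest to the mean profile (0.09) and Gnb1 farthest from it (0.46).

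The promoters of the members are described next. The RefSeq-derived table of GRCm38.p6 held the window from 250 bases before to 50 bases after the start for 6 of the 9 genes, Sag, Gnb1, Cnga1, Pde6b, Gngt1 and Cngb1, and none was looked at for Gnat1, Pde6a and Pde6g. Each window was searched on both strands for TAATCC, bound by the photoreceptor factors CRX and OTX2, and for TGCTGA, the core of sites of the rod factor NRL. The letters of these motifs do not overlap each other in any hit. TAATCC was found in 4 of the 6 windows, beside 7.06% of all 32851 windows in the table, and TGCTGA in 2 of the 6, beside 19.5%. Below are 120 bases of each, read 5′ to 3′ along the gene's strand, with motif letters in capitals (a hit on the opposite strand reads GGATTA). They are shown so that Gnb1, which is also used outside photoreceptors, can be read beside the members particular to rods.
Cngb1, chr8:95306586-95306705, minus strand: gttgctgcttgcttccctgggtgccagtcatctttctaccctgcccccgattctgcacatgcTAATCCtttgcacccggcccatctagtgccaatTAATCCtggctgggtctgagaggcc
Cnga1, chr5:72642883-72643002, minus strand: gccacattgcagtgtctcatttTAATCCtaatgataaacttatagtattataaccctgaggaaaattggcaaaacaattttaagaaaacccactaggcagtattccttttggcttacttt
Gngt1, chr6:3993888-3994007, plus strand: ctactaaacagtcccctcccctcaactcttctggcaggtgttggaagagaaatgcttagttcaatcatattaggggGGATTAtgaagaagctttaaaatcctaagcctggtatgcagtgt
Sag, chr1:87803560-87803679, plus strand: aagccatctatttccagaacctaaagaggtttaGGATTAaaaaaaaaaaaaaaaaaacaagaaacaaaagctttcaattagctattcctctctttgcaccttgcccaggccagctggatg
Pde6b, chr5:108388253-108388372, plus strand: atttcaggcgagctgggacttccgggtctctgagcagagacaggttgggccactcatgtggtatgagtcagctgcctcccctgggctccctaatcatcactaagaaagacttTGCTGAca
Gnb1, chr4:155491241-155491360, plus strand: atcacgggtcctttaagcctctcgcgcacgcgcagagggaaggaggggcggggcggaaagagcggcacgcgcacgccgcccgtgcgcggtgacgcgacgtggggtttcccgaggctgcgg

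All but the Cnga1 stretch end at the base before the start. In Cngb1 the motif TAATCC begins 58 and 25 bases before the start, in Gngt1 44 and in Sag 87. In Cnga1 it begins 228 bases before the start, and the stretch shown runs from 250 to 131 bases before it. TGCTGA begins 8 bases before the start in Pde6b and 187 bases before it in Sag, outside the stretch shown. The Gnb1 window was 70.3% G or C, those of the other 5 genes between 41.3% and 56%. Of the cone partners, 4 had a window in the table, and TAATCC was found in 1 of these, Gnat2, and TGCTGA in 0. A match is a run of letters and not evidence of binding.

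Cones use a parallel set of proteins. All 8 cone partners of the members were tested, and 7 were higher and 1, Cnga3, lower on the KO arrays, with a median difference of 0.22 beside 0.0023 for all tested probes. With 1 array left out the median ran from 0.03, without HZ replicate 1, to 0.44, without HZ replicate 3, and leaving out HZ replicate 1 or 4 gave 4 or 5 partners higher. No partner passed either pair of thresholds, though without HZ replicate 2 the cone arrestin Arr3 passed the looser pair (difference 0.70, adjusted p = 0.487 by limma). With all 8 arrays 1 partner, the channel subunit Cngb3, had an unadjusted p under 0.05. It gave 0.56, 0.94, 0.97 and 0.82 on the HZ arrays and 0.97, 1.30, 1.19 and 1.18 on the KO arrays, groups that do not overlap (difference 0.34, SE 0.12, adjusted p = 0.538 by limma). Without HZ replicate 1 or KO replicate 2 its unadjusted p was 0.0552 or 0.0590. Its other probe differed by 0.02, and with normexp background correction the first differed by 0.07.

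Gnat2, the cone transducin alpha subunit, gave 0.43, 2.56, 2.72 and 0.91 on the HZ arrays and 1.31, 1.95, 1.86 and 1.99 on the KO arrays. HZ replicates 1 and 4 were far below the other HZ arrays, and the KO arrays lay between them. The same HZ arrays were the lowest of all 8 for the phosphodiesterase subunits Pde6c (0.14 and 0.85) and Pde6h (1.42 and 2.24) and for the cone arrestin Arr3 (0.17 and 0.67). Their differences were 0.12 for Gnat2, 0.36 for Pde6c, 0.12 for Pde6h and 0.49 for Arr3, with SEs from 0.44 to 0.52. In the same order these were -0.29, -0.04, -0.33 and 0.15 without HZ replicate 1, and 0.42, 0.57, 0.38 and 0.70 without HZ replicate 2. The transducin subunits Gnb3 and Gngt2 differed by 0.12 and 0.31, and the channel subunit Cnga3 by -0.24, where its other probe differed by 0.17. The mean centred value of the 8 partners was -0.91, 0.41, 0.55 and -0.46 on the HZ arrays and -0.22, 0.22, 0.06 and 0.36 on the KO arrays, so that on the HZ arrays it was low where that of the rod genes was high. Markers of dividing cells were likewise lower on HZ replicates 1 and 4, with a mean centred value of -0.60, 1.28, 0.47 and -0.58 on the HZ arrays and -0.54, 0.69, -0.08 and -0.63 on the KO arrays. On KO replicate 4 they were thus low where the cone partners were high. The lists of Muller glia (-0.39, 0.68, 0.17 and -0.08 on the HZ arrays), bipolar cells, amacrine, horizontal and ganglion cells, and other G protein beta and gamma subunits were also lower on HZ replicates 1 and 4. The remaining lists were not. The part of any of these in the cone values was not tested.

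**Figure D4:**
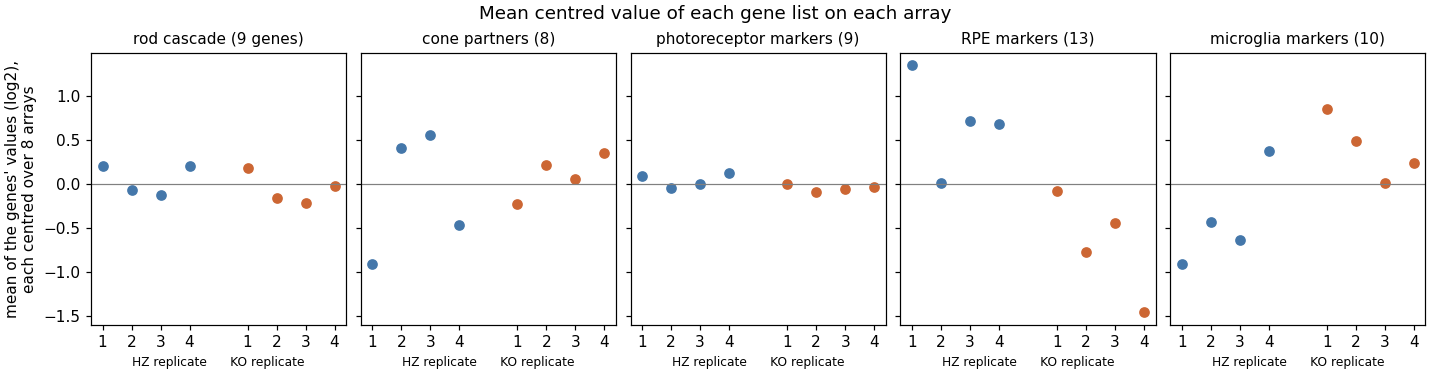
Mean over the genes of each list of the log2 value centred on its mean over the 8 arrays, 1 point per array, HZ in blue and KO in orange. The rod genes stay between -0.22 and 0.21, and the cone partners run from -0.91 to 0.55. The RPE markers run from 1.35 on HZ replicate 1 to -1.46 on KO replicate 4. The last value is a bound, since it takes in Mlana and Krt8, not well above background on that array.

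Of the 11 genes that end the response or restore cyclic GMP and calcium, 7 were lower and 4 higher on the KO arrays, with a median of -0.10, and 0 had an unadjusted p under 0.05. With 1 array left out the median ran from -0.24, without HZ replicate 3 (10 lower and 1 higher), to 0.05, without HZ replicate 4 (5 lower and 6 higher), and the split was 9 lower and 2 higher without KO replicate 4 and 5 lower and 6 higher without KO replicate 2. The differences farthest from 0 were those of Pdc, which binds the transducin beta and gamma subunits, at -0.33 (SE 0.15, adjusted p = 0.627 by limma), of the cyclase activator Guca1a at 0.32 (SE 0.52) and of Gnb5, the partner of Rgs9, at -0.30 (SE 0.34). Gnb5 gave 4.04, 3.96, 3.77 and 3.81 on the HZ arrays and 4.14, 3.80, 3.96 and 2.48 on the KO arrays, so that 1 KO array lay far under the rest, and its other probe differed by 0.12. Without that array Gnb5 differed by 0.07, and Guca1a differed by -0.06 without HZ replicate 1. For Pdc, too, KO replicate 4 was the lowest array, at 6.28. With normexp Pdc differed by -0.60 and passed the looser thresholds (unadjusted p = 0.00314, adjusted p = 0.226).

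Of 6 genes that fold or transport proteins of the cascade, 3 were lower and 3 higher, with a median of -0.02. With 1 array left out it ran from -0.08, without KO replicate 4 (5 lower and 1 higher), to 0.02, without KO replicate 1, and it was 0.07 with normexp. Rd3, which binds and inhibits retinal guanylate cyclase and aids its transport, was the 1 gene of the pathway lists past the looser thresholds. It gave 3.24, 3.23, 2.87 and 2.98 on the HZ arrays and 3.90, 3.62, 3.64 and 3.90 on the KO arrays, with no overlap. KO exceeded HZ by 0.68 with an SE of 0.12 (unadjusted p = 0.00052, adjusted p = 0.328 by limma). The adjusted p was 0.679 with no filter on dim probes and over 0.5 without HZ replicate 1 (0.626), HZ replicate 3 (0.733), KO replicate 3 (0.647) or KO replicate 4 (0.620), while the difference stayed between 0.61 and 0.74 whichever array was left out. Its spot lies in grid column 1, at the edge. The lipid-binding chaperone Unc119, which carries transducin, differed by -0.31 and by 0.16 at its other probe, and the phosphodiesterase chaperone Aipl1 by -0.17.

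Of 10 tested G protein beta and gamma subunits from outside the rod and cone cascades, 7 were higher and 3 lower, with a median of 0.12. All 10 were higher without HZ replicate 2, and 5 were higher and 5 lower without HZ replicate 4 (median -0.0079) or KO replicate 2 (median 0.04). Gng2 differed by -0.36 (SE 0.50) and, without HZ replicate 2, by 0.05, Gng12 by 0.30 (SE 0.11, adjusted p = 0.564 by limma) and Gnb4 by 0.24 (SE 0.11, adjusted p = 0.639 by limma). Gng12 was the 1 of these with an unadjusted p under 0.05, and it was over 0.05 with quantile normalization, with normexp (where the difference was 0.17), with trend and robust eBayes, and without HZ replicates 1, 3 or 4 or KO replicates 1 or 3.

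Of the 9 photoreceptor markers, 7 were lower and 2 higher on the KO arrays, with a median of -0.11, and 0 had an unadjusted p under 0.05. With 1 array left out the median ran from -0.14, without KO replicate 1, to -0.02, without KO replicate 2, and the split was 5 lower and 4 higher without HZ replicate 1. The outer segment protein Rom1 differed by -0.28, the transcription factor Neurod1 by -0.24 and the rod factor Nr2e3 by -0.19, with adjusted p from limma of 0.639, 0.637 and 0.718. The groups did not overlap for Neurod1, lower on the KO arrays, and Otx2, higher by 0.12. Rom1 and Neurod1 had an unadjusted p under 0.05 with quantile normalization, with normexp (where Rom1 differed by -0.54, adjusted p = 0.167) and with trend and robust eBayes, and Otx2 had one with the methods' t-test. The summed signal of the 9 markers, in multiples of the array's 75th percentile, was 822.4, 747.6, 796.8 and 875.0 on the HZ arrays and 816.8, 764.8, 759.7 and 751.5 on the KO arrays. Of these probes that of Nrl had the highest mean log2 value over all 8 arrays, but on the HZ arrays that of Rom1 was higher (7.22 against 7.15). The sum for the 9 cascade genes was 574.7, 497.3, 506.9 and 604.8 on the HZ arrays and 578.8, 480.5, 451.7 and 514.6 on the KO arrays.

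Of the 13 tested markers of the retinal pigment epithelium (RPE), the 11 well above background on all 8 arrays were lower on the KO arrays, 9 of them with an unadjusted p under 0.05 and 7 past the looser thresholds, with a median of -1.14. Rpe65, whose spot lies at the edge in grid column 1, differed by -2.38 (adjusted p = 0.368 by limma). Mlana and Krt8 were not well above background on KO replicate 4, so that their differences, -2.26 and -2.20, are bounds and are left out of these counts. The summed signal of the 13 RPE markers was 40.4, 14.8, 25.5 and 22.5 on the HZ arrays and 14.7, 9.72, 12.5 and 7.64 on the KO arrays. The Dct probe had the highest mean log2 value over all 8 arrays, but on the KO arrays that of Krt18 was higher (1.94 against 1.79). The 1 marker not tested was Lrat. KO replicate 4, the array lowest in RPE signal, was also the lowest for the first Gnb1 probe, but the highest for the second. KO replicate 2 had less RPE signal than KO replicate 3 (9.72 against 12.5) but a higher first Gnb1 probe (5.07 against 4.62). A link between them was not tested. The number past the looser thresholds fell to 0 with no filter on dim probes and without HZ replicate 1, HZ replicate 3 or KO replicates 2, 3 or 4, to 3 without HZ replicate 4, to 4 without KO replicate 1 or with edge spots left out, and to 5 with quantile normalization or with the other percentile (that of probes bright on all arrays). It was 9 with the filter at all 8 arrays (1.03%), with trend and robust eBayes (1.46%), with the replicate block (3.4%) and without HZ replicate 2 (5.05%). Whichever array was left out, 8 to 10 of the RPE markers had an unadjusted p under 0.05.

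Of 10 microglia markers, Tmem119 was well above background on only 1 of 4 HZ and 3 of 4 KO arrays and P2ry12 on 2 of 4 in each group, and these are left out of the counts. The other 8 were higher on the KO arrays, with a median of 0.89, 4 with an unadjusted p under 0.05 and 0 past the looser thresholds. Cx3cr1 differed by 0.93, Ctss by 0.92 and C1qa by 0.91. The summed signal of the 10 markers was 2.35, 2.80, 2.52 and 5.72 on the HZ arrays and 7.46, 5.68, 3.99 and 4.25 on the KO arrays. The Csf1r probe had the highest mean log2 value over all 8 arrays, but on the KO arrays that of Ctss was level with it (both 0.42). HZ replicate 4 lay within the KO range. The other Csf1r probe differed the opposite way, by -0.34. Those with an unadjusted p under 0.05 numbered 1 under the replicate block or the methods' t-test, 2 with no filter or the other percentile, 6 with normexp, 7 with quantile normalization, the filter at all 8 arrays or trend and robust eBayes, 0 without HZ replicates 1, 2 or 3 or KO replicates 1 or 2, and 8 without HZ replicate 4. The number past the looser thresholds was 7 with the replicate block (3.4% of all tested probes), without HZ replicate 2 (5.05%) or without HZ replicate 4 (0.793%). It was 4 with normexp (1.14%), 3 with trend and robust eBayes (1.46%) and 1 with the filter at all 8 arrays (1.03%). Without any other array it was 0, where 0% to 0.574% of all tested probes passed. The hemoglobin gene Hba-a1 differed by 1.51 (SE 0.58, unadjusted p = 0.0311, adjusted p = 0.581 by limma). Its unadjusted p was not under 0.05 with the methods' t-test or without HZ replicates 2, 3 or 4 or KO replicates 1 or 4, and it passed the looser thresholds with normexp, with trend and robust eBayes, with the replicate block and without HZ replicate 2. Hbb-bt was well above background on 2 of 4 HZ and 4 of 4 KO arrays, and Alas2 on no array. The part of these other cells in the values of the cascade was not tested.

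Among the other markers named here, 0 had an unadjusted p under 0.05 in limma by the first probe. Of 6 Muller glia markers 5 were lower (Sox9 -0.48, Kcnj10 -0.32, Vim -0.27), but 3 without HZ replicate 2, with a median of 0.03. The bipolar markers Cabp5 and Trpm1 both differed by -0.42, where the 5 probes of Trpm1 ran from -1.78 to 0.20. The unadjusted p of Trpm1, 0.0501 in limma, was under 0.05 with normexp, the filter at all 8 arrays, trend and robust eBayes or edge spots left out and without HZ replicates 1 or 2, and that of Cabp5 without HZ replicate 2. Among all 6 bipolar markers, 1 had an unadjusted p under 0.05 and 1 passed the looser thresholds with the replicate block. Of 5 tested markers of amacrine, horizontal and ganglion cells 3 were lower (Pou4f1 -0.80, Slc32a1 -0.44, Pax6 -0.38), while Gad1, Rbpms and Pou4f2 were not well above background on any array. Without HZ replicate 2, 1 of the 5 was lower. The vascular markers Kdr and Pecam1 differed by -0.80 and -0.0054. With the replicate block 1 of them had an unadjusted p under 0.05 and 1 passed the looser thresholds. Cldn5 was not well above background on HZ replicate 3, so that its difference of 1.24 is a bound, and Cdh5 and Tek were not well above background on any array. The dividing cell markers Top2a, Mki67 and Ccnb1 differed by -0.41, -0.32 and -0.13, and 1 of them was lower without HZ replicate 2 and 1 had an unadjusted p under 0.05 with the replicate block.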

How the data were processed

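RNA of photoreceptor cells from 4 HZ and 4 KO samples was labelled with Cy3 and hybridised to one-color Agilent mouse arrays. The authors deposited spot intensities, background-subtracted and detrended, made with Agilent Feature Extraction 10.7.1.1 (version from the submitters' processing notes). Also deposited were log2 values that had been shifted to the 75 percentile, each probe centred on its median over the 8 arrays; their scale and centring were read from the values (slope 0.996 and r = 0.997 against the scanner values), and the column medians ran from -0.07 to 0.20. These served as an alternative.

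From log2 intensities, the 75th percentile of each array's non-control spots was subtracted. Spots marked as outliers were dropped, and a probe's spots averaged. A test needed signal well above background on 4 or more arrays and 3 or more values a group, and used limma 3.58.1 (lmFit, eBayes) under R 4.3.3 with data.table, version 1.17.8, two-sided, with Benjamini-Hochberg adjustment over 34303 probes. The 75th percentile intensity ran from 882.0 to 1024 and 59.5% to 64.6% of probes were well above background; 0 spots were saturated. Spots marked as nonuniform numbered 458 on HZ replicate 4 and 2 to 25 on every other array. The number of arrays limits the precision. Accessions were matched to RefSeq names of GRCm38.p6, not to coordinates, and 32994 of 56605 probes matched 1 gene. The fit was tested on simulated data. The members and lists were chosen with earlier results of these data known. Named are every member probe, Lpcat1, Nt5e, the cone partners, the 3 genes of each other list with the largest absolute difference by the brightest probe, and the 3 nearest profiles; other genes are named where they were singled out after their values were seen. One gene that this rule takes in is not reported here. Arrays with the same replicate number deviated together from their group means (r from 0.172 to 0.337 over probes in the 4 pairs, -0.337 to 0.117 in the 12 other pairs). The labels do not say what the number stands for, and it also gives the slide column, so that pairing and slide column cannot be told apart. Of the sample columns, 0 were not used. Alternatives were other scalings, filters, tests and each array left out.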

Additional observations from a re-analysis of the deposited data

Results flagged for a closer look

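In 3 of 48 groups of 4 arrays looked at, 1 array stood apart from the other 3 by most of the range of its group, where chance gives about 2.4. KO replicate 4 gave 3.66 for the second Cngb1 probe, the other KO arrays 4.83 to 4.99. KO replicate 1 gave 4.05 for Nt5e, the other KO arrays 4.25 to 4.29. KO replicate 2 gave 7.26 for the cone subunit Gngt2, the other KO arrays 6.71 to 6.77.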

How the results depend on the processing

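The count past the stricter thresholds was 0 of 13 member probes under every alternative run. The count past the looser thresholds, 0, was 1 with normexp background correction, where 1.14% of all tested probes passed. It was 1 with the filter at all 8 arrays (1.03% of all), with trend and robust eBayes (1.46%) and with the replicate block (3.4%). With 1 array left out it was 0 to 1 (1 without HZ replicate 2, beside 5.05% of all). The count with an unadjusted p under 0.05, 1, was 2 with quantile normalization (8.17% of all tested probes) and normexp (9.96%). It was 2 as well with trend and robust eBayes (8.93%) and the replicate block (11.9%), and 0 with edge spots left out (8.01%, chosen after seeing the data). With 1 array left out it was 0 to 2, being 0 without HZ replicate 1 (6.93%) or KO replicate 3 (6.99%) and 2 without KO replicate 1 (7.24%). The number of member probes without overlap, 0, was 1 with the percentile taken over the probes that are bright on all arrays, with quantile normalization and with normexp. It was 0 to 3 with 1 array left out (3 without KO replicate 1). The share of all tested probes without overlap is given for the main setting only (6.33%), so that nothing can be read from these counts. Beyond the fewer arrays or probes in a fit, the cause was not tested. The replicate block changed no other call of the members. The median of the 9 genes, -0.05, changed sign without KO replicate 2 (0.04), HZ replicate 4 (0.04) or HZ replicate 1 (0.01), and ran from -0.14 to 0.04 with 1 array left out.

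Gnb1 was 0.12 in place of -0.73 with edge spots left out, since its other probe then stands for it. It was otherwise between -1.17 (normexp) and -0.31 (mean of its probes). Pde6b, at -0.0039, was 0.013 with the authors' processed values, and Pde6a and Pde6b changed sign with single arrays left out, Pde6a between -0.15 and 0.10 and Pde6b between -0.18 and 0.11. The other 6 genes, Gnat1, Gngt1, Pde6g, Cnga1, Cngb1 and Sag, kept their sign under the other scalings and background correction, with each array left out and as the mean of a gene's probes, while other filters and tests leave a difference as it is. Over the alternatives Cnga1 lay between -0.74 and -0.30 and Gnat1 between 0.13 and 0.50, with adjusted p of at least 0.39 for both.

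Over all tested probes the looser thresholds took 357, but 41 with no filter, 1167 with the replicate block and 0 to 1734 with 1 array left out. The stricter ones took 0, but 17 with normexp, 3 with trend and robust eBayes, and 2 with quantile normalization or the methods' t-test. With 4 arrays a group, the SEs of 0.09 to 0.28 set what could be seen in these genes, since all 13 probes were well above background.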
